A study of Mus musculus with 4 samples.

Results

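The cytochrome P450 genes of the mouse were examined in maps of H3K23pr, propionylated lysine 23 of histone H3, in liver. Members were the protein-coding genes of the RefSeq table of GRCm38 (mm10) whose symbol is Cyp, digits and a lower-case letter, with Cyp51 added. They numbered 99 of 21887 protein-coding genes on assembled chromosomes. The data were peak lists from 2 immunoprecipitated (IP) libraries of male C57BL/6 liver, each called against its own input library. The KO group was liver labelled as a hepatocyte-specific RPN11 knockout and the WT group was liver labelled RPN11 flox/flox, with 1 IP and 1 input library each. Psmd14 encodes RPN11, a deubiquitylase in the lid of the proteasome. The labels name no Cre driver, age or diet and do not say how many animals a library holds. The knockout is limited to hepatocytes, so DNA of other liver cells was in both libraries. Peak lists hold no expression, so the liver label could not be checked with marker genes.

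P450 enzymes are heme proteins that add oxygen to their substrates with electrons from partner proteins. In liver, families CYP1, CYP2 and CYP3 act mainly on drugs, other foreign compounds and steroids, CYP4 enzymes hydroxylate the ends of fatty acids and eicosanoids, and a smaller set builds bile acids and cholesterol. Many members lie in tandem clusters of near-identical copies. Histone acylations such as propionylation are in general found at active chromatin.

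The IP depth used by the caller, after repeated fragments were dropped, was 15468265 fragments in KO and 13615838 in WT, with a mean fragment size of 71 bp in KO and 97 bp in WT. Peaks numbered 41907 in KO and 54397 in WT. Depth and fragment size differ along with the genotype, so their parts in any difference cannot be told apart. Every contrast of KO with WT sets 1 library beside 1 library, without replicates, and intervals are exact 95% intervals that cover counting error only. The limit given beside a count of 0 is instead 3 counts over the total examined. Psmd14, the targeted gene (chromosome 2, 61711694 to 61800376), carried 10 KO peaks of 4 to 7 fragments and 7 WT peaks of 4 to 6 fragments, which do not check the knockout.

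A peak inside the promoter was rare. In the RefSeq promoter table of GRCm38.p6, which gives 250 bases before to 50 after a start site, 77 of the 99 members were found. In KO 2 of them, Cyp3a59 and Cyp2c68, had a peak in that window, against 0.217% of all protein-coding genes, and in WT 0 of 77 did, which allows a share of up to 3.90%, against 0.515% of all genes. Both promoters are printed from 5′ to 3′ on the gene's strand, with the bases under the KO peak in capitals. Each is followed by its closest paralog in the same cluster that had no peak in its promoter, with the aligned bases in capitals, since copies this alike decide how surely a fragment can be placed.

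Cyp3a59 (chr5:146079008-146079307, plus strand): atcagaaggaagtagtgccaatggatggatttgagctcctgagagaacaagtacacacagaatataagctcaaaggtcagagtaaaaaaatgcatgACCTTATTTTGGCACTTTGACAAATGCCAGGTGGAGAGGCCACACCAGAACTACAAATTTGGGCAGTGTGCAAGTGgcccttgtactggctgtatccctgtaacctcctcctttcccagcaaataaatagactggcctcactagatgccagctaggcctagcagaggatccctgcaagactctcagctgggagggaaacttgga

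Cyp3a25 (chr5:146009569-146009868, minus strand): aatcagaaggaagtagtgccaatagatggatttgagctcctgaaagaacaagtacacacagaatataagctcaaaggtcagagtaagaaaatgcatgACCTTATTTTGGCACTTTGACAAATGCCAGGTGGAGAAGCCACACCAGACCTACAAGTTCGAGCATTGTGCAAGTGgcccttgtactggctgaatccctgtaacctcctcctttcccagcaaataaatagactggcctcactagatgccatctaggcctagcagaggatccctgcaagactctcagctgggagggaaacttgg

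Cyp2c68 (chr19:39741052-39741351, minus strand): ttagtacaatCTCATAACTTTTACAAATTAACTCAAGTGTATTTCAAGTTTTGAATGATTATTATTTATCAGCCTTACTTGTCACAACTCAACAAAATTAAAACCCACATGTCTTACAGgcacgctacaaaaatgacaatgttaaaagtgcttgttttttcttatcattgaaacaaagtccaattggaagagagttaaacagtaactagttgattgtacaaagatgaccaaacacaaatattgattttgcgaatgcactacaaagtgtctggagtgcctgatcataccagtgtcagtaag

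Cyp2c69 (chr19:39886720-39887019, minus strand): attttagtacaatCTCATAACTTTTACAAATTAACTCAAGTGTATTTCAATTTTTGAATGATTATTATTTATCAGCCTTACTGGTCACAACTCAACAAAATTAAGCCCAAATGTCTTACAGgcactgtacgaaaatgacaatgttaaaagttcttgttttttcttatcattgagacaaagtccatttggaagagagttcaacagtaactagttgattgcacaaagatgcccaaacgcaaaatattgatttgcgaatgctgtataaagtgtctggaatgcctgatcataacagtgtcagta

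The Cyp3a59 peak in KO (chromosome 5, 146079104 to 146079179) had 4 fragments and its summit lay 131 bp before the start site. The Cyp2c68 peak in KO (chromosome 19, 39741233 to 39741341) also had 4 fragments, with a summit 186 bp before the start site. A count of 4 is the lowest in either list. The promoter of Cyp3a59 matched that of Cyp3a25 at 95.7% of aligned positions, and Cyp2c68 matched Cyp2c69 at 91.1%. Among 193 pairs of members of the same subfamily, 11 had promoters at least 90% identical, the closest being Cyp2b13 and Cyp2b9 at 99.3%, Cyp2a4 and Cyp2a5 at 97.7%, and Cyp3a41a and Cyp3a41b at 97.3%. Fragments of such copies may be split between them or dropped by the aligner, so the peaks of these genes are uncertain as to which copy they belong to.

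Some motifs were more or less frequent in the members' promoters than in all promoters. The letters CAAAGTCCA, known as an element preferred by the hepatocyte factor HNF4A, were found on either strand in 11 of 77 member promoters (14.3%), against 0.520% of 17492 protein-coding genes in the table. This motif was chosen after the sequences had been read. The 11 were Cyp2c40, Cyp2c65, Cyp2c67, Cyp2c68, Cyp2c69, Cyp2c70, Cyp3a11, Cyp3a16, Cyp3a41a, Cyp3a41b and Cyp8b1, so 10 of them belong to 2 clusters of paralogs. Of these 11, 8 had a KO peak and 7 a WT peak somewhere in the gene or within 2 kb, compared with 31 and 29 of the 66 without the motif. Length differs between these sets, with medians of 33.4 kb with the motif and 21.4 kb without it. Over all protein-coding genes 29.6% had a KO peak and 41.6% a WT peak. Cyp2c and Cyp3a genes make up 10 of the 11 but 12 of the 66, so motif and cluster cannot be told apart. The letters TATAAA, the core of the TATA box, were present at any place in the window and on either strand in 33 of 77 (42.9%), against 14.8% of all genes. Most of the 33 are Cyp2a, Cyp2c, Cyp2d or Cyp3a paralogs, so promoters that are alike are counted more than once. The core of the Ah receptor element, searched as GCGTG on either strand, was present in 17 (22.1%), against 41.4%. It was found in the promoters of Cyp1a1 and Cyp1b1 but not in that of Cyp1a2, and the other promoters with it belonged to genes outside CYP1. Cyp3a11, the main drug-metabolising CYP3A enzyme of mouse liver, is shown with its CAAAGTCCA in capitals, which starts 109 bases before the start site.

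Cyp3a11 (chr5:145879805-145880104, minus strand): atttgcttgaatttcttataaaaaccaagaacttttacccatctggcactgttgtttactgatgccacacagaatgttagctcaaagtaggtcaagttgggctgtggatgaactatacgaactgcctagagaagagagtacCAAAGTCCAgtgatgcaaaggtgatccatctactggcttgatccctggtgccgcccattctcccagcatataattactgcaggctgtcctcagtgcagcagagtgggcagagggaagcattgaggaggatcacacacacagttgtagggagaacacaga

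P450 genes as a family carried peaks in both genotypes. With the gene and 2 kb on either side, 44 of 99 members had a KO peak (44.4%, interval 34.5 to 54.8) and 45 a WT peak (45.5%, 35.4 to 55.8). Over all protein-coding genes 29.6% had a KO peak and 41.6% a WT peak, so the WT share of the members lay near the background and the KO share above it. Peaks were present in both lists for 25 members (background 21.6%), in KO only for 19 (background 8%) and in WT only for 20 (background 20.1%). The remaining 35 had no peak in either list (background 50.4%). Gene length enters these counts, because the median member spans 22.5 kb and the median protein-coding gene 17.2 kb. Among the 49 members between 9.99 and 34.4 kb, 23 had a KO peak (46.9%) and 24 a WT peak (49.0%), against 22.5% and 36% of all protein-coding genes in that range. Of these 49, 12 had peaks in both lists (24.5%, background 11%) and 14 had none (28.6%, background 52.5%).

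Counted per length, the members held more peaks than the average gene in both lists. Their windows, merged, covered 3.08 Mb and held 100 KO peaks and 102 WT peaks. The density was 32.5 peaks per Mb in KO (26.4 to 39.5) and 33.1 in WT (27.02 to 40.2), against 17.5 and 22.9 over the windows of all protein-coding genes. These are 1.86 times the all-gene density in KO (1.51 to 2.26) and 1.45 times in WT (1.18 to 1.75). Without the Cyp2c cluster the values were 1.57 times in KO (1.21 to 2.01) and 1.15 times in WT (0.876 to 1.47), so the WT interval then included 1. The KO to WT ratio of peak number was 0.980 in the members (0.737 to 1.305) and 0.763 over all gene windows (0.749 to 0.778), which lies within the members' interval.

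The peaks themselves were low, in the members as over all genes. The pileup, the number of IP fragments over a summit, had a median of 5 in the members in both lists, the same as over all gene windows. The highest member peak had 9 fragments in KO and 9 in WT. Peaks of 4 fragments made up 39% of member peaks in KO and 35.3% in WT, against 39.8% and 34.6% over all gene windows. Peaks of 7 or more fragments made up 14.0% in KO (7.87 to 22.4) and 12.7% in WT (6.96 to 20.8), against 10.8% and 13.6%. The caller's fold follows from the pileup where the local background is at the genome-wide level: 4 fragments gave a fold of 3.19 in KO and 2.96 in WT, and 7 gave 5.10 and 4.73. A KO peak therefore has the higher fold at the same number of fragments, and fragments are compared below. A caller q of 0.05 or smaller was reached by 32 of the KO peaks and 10 of the WT peaks in the members (32.0% and 9.80%), against 28.9% and 10.7% over all gene windows. With only such peaks the KO to WT ratio in the members was 3.20 (1.53 to 7.30), and over all gene windows it was 2.06, inside that interval. At the genome-wide background this q limit was passed from 6 fragments in KO and from 7 in WT. In the members 7 of 100 KO peaks (7%) and 14 of 102 WT peaks (13.7%) had a local background more than 5% above that level. Over all genes the shares were 16.9% in KO and 15.3% in WT. The KO and WT shares are not like for like. A KO background of 0.604 counted as raised over 0.568, while a WT background of 0.725 did not over 0.692.

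**Figure D1:**
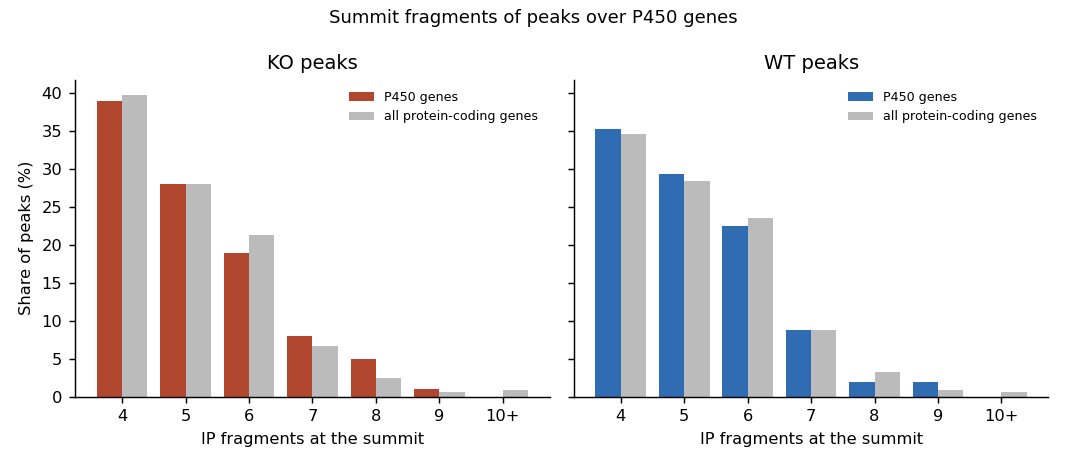
Share of called peaks by the number of IP fragments at the summit, for KO (left) and WT (right). Coloured bars are the 100 KO or 102 WT peaks over P450 genes and grey bars the peaks over all protein-coding genes; in both lists the 2 sets fall off alike, and no P450 peak has 10 or more fragments.

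No site in the members was called in both genotypes. Of the 100 KO peaks 0 overlapped a WT peak, which allows up to 3.00%, and of the 102 WT peaks 0 touched a peak of the KO list, which allows up to 2.94%. Over all gene windows the shares were 1.08% of KO peaks and 0.837% of WT peaks, both under those limits. Peaks within 500 bp of a peak of the other list were 10 of 100 in KO (10.0%, 4.90 to 17.6) and 9 of 102 in WT (8.82%, 4.11 to 16.1), against 4.17% and 3.12% over all gene windows. Those shares are not matched for peak density, which in the members was 1.86 times the all-gene value in KO and 1.45 times in WT. They therefore do not show that KO and WT peaks share sites in the members. The closest pair lay beyond the lower-coordinate end of Cyp2ab1. There a KO peak (chromosome 16, 20308233 to 20308333) and a WT peak (20308126 to 20308231) of 4 fragments each were 1 bp apart. Cyp7b1 held 2 such pairs, Cyp2c67 2, Cyp3a25 2 involving the same WT peak, and Cyp27a1, Cyp2a12 and Cyp2c39 1 each.

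With all called peaks counted, the members stood above the background near start sites in KO and not in WT. In KO 15 of the 77 members with a known start site had a peak within 2 kb of it (19.5%, 11.3 to 30.1), against 4.59% of all protein-coding genes in the table. In WT 6 of 77 did (7.79%, 2.91 to 16.2), against 8.22%. The intervals of the KO and WT shares overlapped. The KO genes included 4 of the Cyp2c cluster (Cyp2c37, Cyp2c40, Cyp2c67 and Cyp2c68) and 4 of the Cyp3a cluster (Cyp3a11, Cyp3a25, Cyp3a44 and Cyp3a59). The other KO genes were Cyp27a1, Cyp2b13, Cyp2e1, Cyp2j5, Cyp4a30b, Cyp4f15 and Cyp4v3. In WT they were Cyp27a1, Cyp2c67, Cyp2c69, Cyp2j5, Cyp3a16 and Cyp8b1, of which Cyp27a1, Cyp2c67 and Cyp2j5 were also marked in KO. The KO share was 9.09% within 1 kb (background 1.74%) and 27.3% within 5 kb (background 11.7%). Counting peaks of 5 or more fragments gave 9 of 77 in KO (11.7%, background 3.13%), and leaving out the Cyp2c cluster gave 11 of 64 (17.2%). With a caller q of 0.05 or smaller it was 3 of 77 in KO (3.90%, 0.811 to 10.97, background 1.34%), an interval that includes the background, and 1 of 77 in WT (1.299%, background 1.13%). The highest near-start peaks were those of Cyp3a11 and Cyp4a30b in KO, with 7 fragments each, and of Cyp3a16 in WT, with 8.

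**Figure D2:**
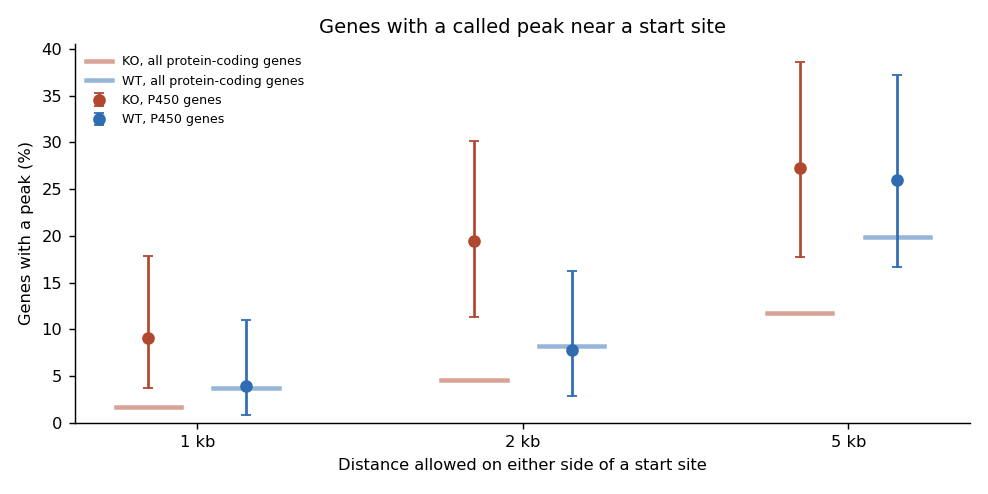
Percentage of genes with a called peak within 1, 2 or 5 kb of a start site. Points are the 77 P450 genes in KO (left of each pair) and WT, with exact 95% binomial intervals, and pale horizontal bars are all protein-coding genes of the table; the KO points (9.09, 19.5 and 27.3%) and their intervals lie above their bars and the WT intervals include theirs.

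The largest cluster, Cyp2c, was dense in peaks in both genotypes. Cyp2c enzymes oxidise drugs, steroids and arachidonic acid. On chromosome 19 from 39004940 to 40189286 the whole span, with its 14 members, held 54 KO peaks and 56 WT peaks, or 45.6 per Mb in KO (34.3 to 59.5) and 47.3 in WT (35.7 to 61.4). The 1 Mb on each side had 20.5 per Mb in KO (14.7 to 27.8) and 26.5 in WT (19.9 to 34.7), so the cluster stood above its surroundings beyond counting error in both libraries. The members' own windows held 36 of these KO peaks and 41 of these WT peaks. A KO peak marked 12 members and a WT peak 10, with 9 in both, and Cyp2c70 had none in either. The shares over all protein-coding genes, not matched for length, were 29.6%, 41.6% and 21.6%. The cluster's members are long, with a median of 42.0 kb.

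Within Cyp2c, the genes Cyp2c39, Cyp2c67, Cyp2c68 and Cyp2c69 each held 5 or more peaks in both lists. Cyp2c68 had 7 KO peaks of 4 to 8 fragments and 5 WT peaks of 4 to 7. Cyp2c69 had 5 KO peaks of 4 to 8 fragments and 6 WT peaks of 4 to 7, and Cyp2c67 had 5 KO peaks of 4 to 6 and 6 WT peaks of 4 to 6. The heights of KO and WT peaks overlapped in each of these 3 genes. Cyp2c39, a gene model of 222 kb that contains Cyp2c38, had 6 KO peaks and 12 WT peaks of at most 7 fragments in either list, of which 2 and 3 also fall to Cyp2c38. The highest KO peak over any member lay in Cyp2c65 (chromosome 19, 39072202 to 39072335), with 9 fragments and a fold of 6.38, where WT had 1 other peak of 5 fragments. Cyp2c40, Cyp2c37 and Cyp2c50 had 3, 1 and 3 KO peaks of 4 to 6 fragments and no WT peak, and Cyp2c54 had 2 WT peaks of 6 fragments and no KO peak. Cyp2c55, Cyp2c66 and Cyp2c29 had 2, 1 and 2 KO peaks of 5 or 6 fragments and 1, 5 and 3 WT peaks of 4 to 7. Outside the cluster, Cyp2c23 had 2 WT peaks, of 7 and 6 fragments, and no KO peak.

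**Figure D3:**
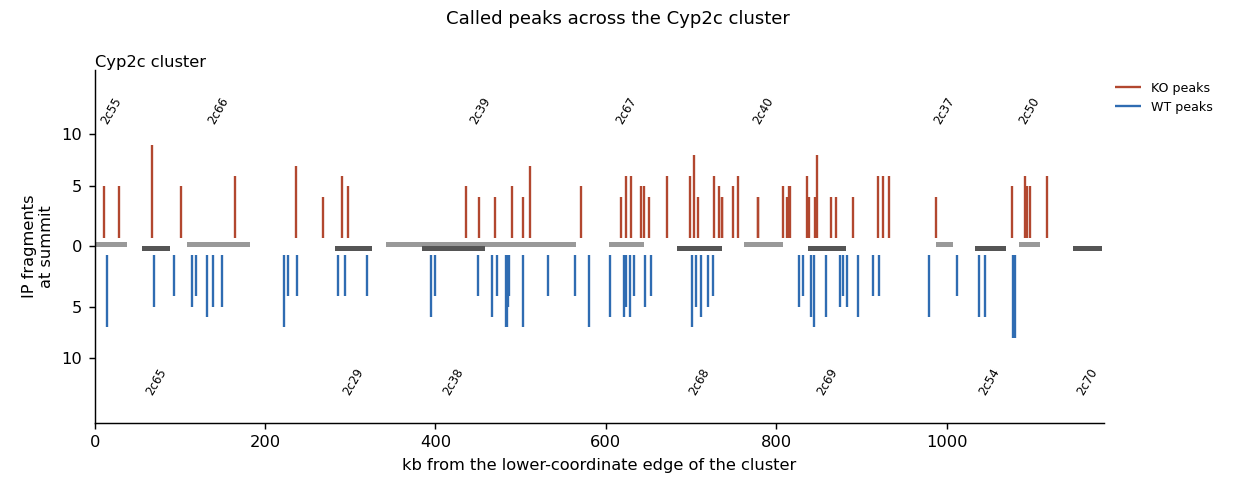
Called peaks across the Cyp2c cluster, in kb from its lower-coordinate edge. Upward red lines are KO peaks and downward blue lines WT peaks, with IP fragments at the summit as height, grey bars are genes, and names omit the prefix Cyp; peaks of both lists crowd over 2c67, 2c68 and 2c69, and no height passes 9 fragments.

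The Cyp3a cluster held more peaks per Mb than its surroundings in both lists. CYP3A enzymes oxidise many drugs, steroids and bile acids. The cluster (chromosome 5, 145343149 to 146116978, 8 members) held 23 peaks in KO and 23 in WT, 29.7 per Mb in each (18.8 to 44.6). Its sides had 7 per Mb in KO (3.83 to 11.7) and 16.5 in WT (11.4 to 23.2). The intervals of cluster and sides were apart in KO and overlapped in WT. Overlap of 2 intervals does not test a difference, so it does not set KO and WT apart. A KO peak marked 6 of the 8 members and a WT peak 5, against 29.6% and 41.6% of all protein-coding genes. Cyp3a11 (145854607 to 145879854) had KO peaks of 6 and 7 fragments, the higher one at 145881192 to 145881276 with its summit 1371 bp before the start site. Its single WT peak had 6 fragments and lay 9064 bp inside the gene from that site. Cyp3a16 showed the opposite order, with 1 KO peak of 4 fragments and 2 WT peaks, one of 4 fragments and one of 8 at 145469053 to 145469192, 549 bp past the start site. Cyp3a44 had 3 KO peaks of 4 fragments and no WT peak. Cyp3a25 had 3 peaks in each list, of 4 or 5 fragments, and Cyp3a59 had 3 KO peaks of 4 to 7 and 2 WT peaks of 4 and 6. Cyp3a41b had 1 KO peak of 6 fragments, while its near copy Cyp3a41a had no peak in either list. Cyp3a57 had 1 WT peak of 5 fragments and no KO peak. Cyp3a13, which lies apart from the cluster, had 3 KO peaks of 5 or 6 fragments and no WT peak.

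The Cyp2d genes held almost no peaks, over short windows. CYP2D enzymes oxidise many basic drugs. The 8 members are short, with a median of 4.43 kb, and their windows covered 73.5 kb in all. They held 0 KO peaks, which allows up to 40.8 per Mb, and 1 WT peak, of 5 fragments, beside Cyp2d40. Across the whole span (chromosome 15, 82368527 to 82796452) there were 8 KO peaks and 12 WT peaks, 18.7 per Mb in KO (8.07 to 36.8) and 28.0 in WT (14.5 to 49.0). The 1 Mb on each side had 5.5 per Mb in KO (2.75 to 9.84) and 19.5 in WT (13.9 to 26.7). All 8 KO peaks and 9 of the WT peaks of the span lay outside the windows of members and of other P450 loci. At the all-gene density the members' windows are too short to show whether Cyp2d genes lack peaks.

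**Figure D4:**
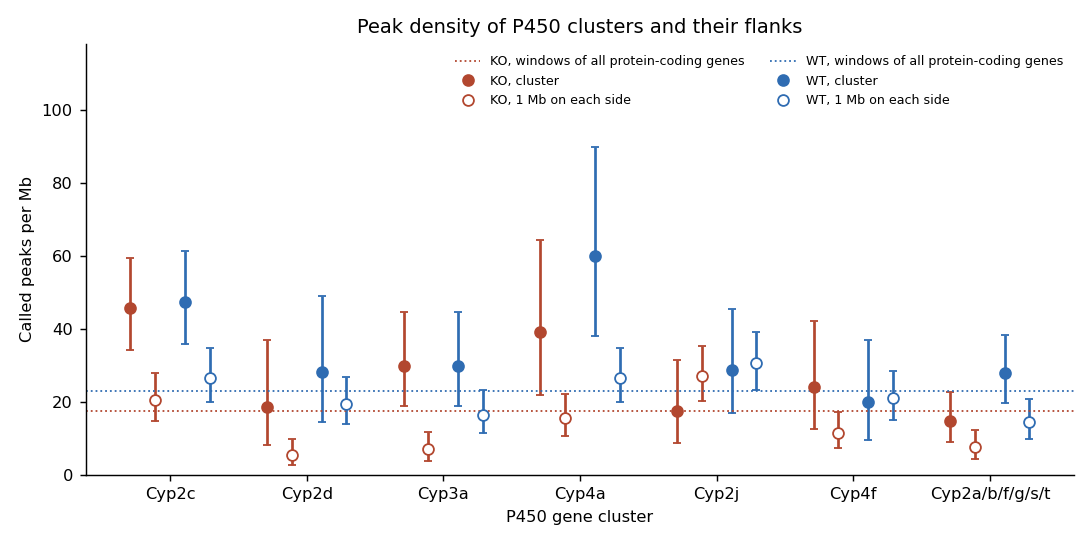
Called peaks per Mb in 7 P450 clusters (filled) and in the 1 Mb on each side (open), for KO (red) and WT (blue), with exact 95% Poisson intervals; dotted lines are the windows of all protein-coding genes (17.5 in KO and 22.9 in WT). Cyp2c and Cyp4a are highest in both lists, and the open KO points of Cyp2d and Cyp3a, at 5.5 and 7, are lowest.

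Fatty acid hydroxylases of family CYP4 had peaks in both lists. The 20 members of family CYP4 had a KO peak in 12 and a WT peak in 10, with 6 in both, against 29.6%, 41.6% and 21.6% of all protein-coding genes. CYP4A enzymes, which hydroxylate medium and long-chain fatty acids at the end of the chain, are classical targets of the receptor PPARA. The Cyp4a cluster (chromosome 4, 115240044 to 115624507, 8 members) held 15 KO peaks and 23 WT peaks, 39.02 per Mb in KO (21.8 to 64.3) and 59.8 in WT (37.9 to 89.8). Its sides were sparser in both lists, with 15.5 per Mb in KO (10.5 to 22.0) and 26.5 in WT (19.9 to 34.7). The intervals of cluster and sides were apart in WT and only just met in KO, which does not set KO and WT apart. In the members' own windows there were 11 KO peaks and 11 WT peaks, 58.7 per Mb in each, and 12 of the other WT peaks lay outside all P450 windows. Cyp4a10 (115518287 to 115533649) had KO peaks of 5 and 4 fragments, one beyond each end, and no WT peak, while Cyp4a14 had no peak in either list. Cyp4a31 had 2 WT peaks and no KO peak, and one of them, of 9 fragments (115568217 to 115568371, fold 5.06), was among the 2 highest WT peaks over any member. Cyp4a12b had 3 KO peaks of 4 to 6 fragments and 1 WT peak of 4, and Cyp4a12a had 2 KO peaks of 4 fragments and 1 WT peak of 5. Cyp4a30b had KO peaks of 7 and 6 fragments and WT peaks of 6, 5 and 4. Cyp4a32 had 2 peaks in each list, of 4 to 6 fragments, and Cyp4a29 had WT peaks of 4 and 5 only. Cyp4b1 adjoins Cyp4a32, and its 1 KO peak of 6 fragments and 1 WT peak of 4 are also counted in that gene. Cyp4x1, on the other side of the cluster, had 2 WT peaks of 4 and 6 fragments and no KO peak.

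CYP4F enzymes inactivate leukotrienes and hydroxylate very long-chain fatty acids. In the Cyp4f cluster (chromosome 17, 32450697 to 32949415) a KO peak marked 5 of 8 members and a WT peak 1, with none in both. Over all protein-coding genes these shares were 29.6%, 41.6% and 21.6%, and 8 genes are few to compare with them. The KO genes were Cyp4f17 (8 fragments at 32504199 to 32504346, fold 5.74), Cyp4f16 (7 fragments), Cyp4f39 and Cyp4f15 (6 each) and Cyp4f40 (5). The WT gene was Cyp4f37, with 4 fragments. Across the whole span, however, there were 12 KO peaks and 10 WT peaks, a ratio of 1.2 (0.475 to 3.10), and 7 of these KO peaks and 9 of these WT peaks lay outside the members' windows. Per Mb the span had 24.1 peaks in KO and 20.1 in WT, against 11.5 and 21 on its sides. The other members of the cluster, Cyp4f13 and Cyp4f14, had no peak, nor had Cyp4f18 on chromosome 8, and Cyp4v3 on that chromosome had 1 KO peak of 5 fragments and 1 WT peak of 6.

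**Figure D5:**
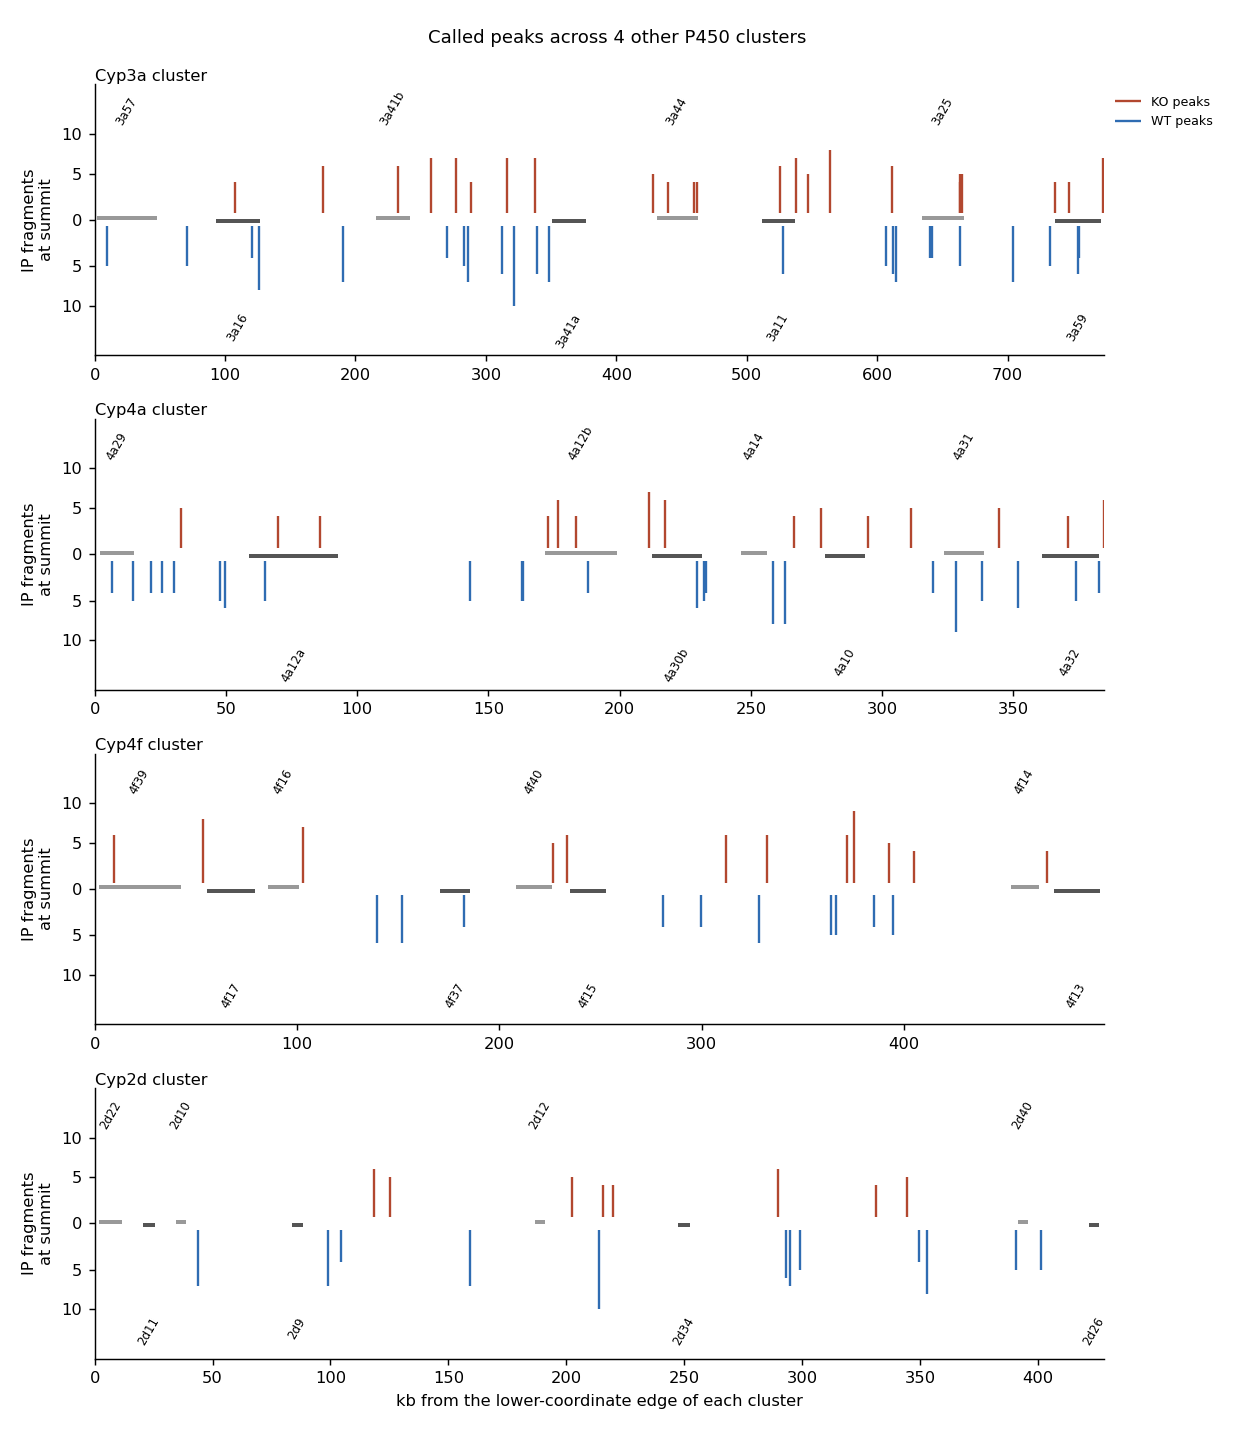
Called peaks across the Cyp3a, Cyp4a, Cyp4f and Cyp2d clusters, in kb from the lower-coordinate edge of each. Upward red lines are KO peaks and downward blue lines WT peaks, with IP fragments at the summit as height, grey bars are genes, and names omit the prefix Cyp; in Cyp4f the KO lines fall in or within 2 kb of 5 genes and the WT lines of 1, and in Cyp2d nearly all lines fall between genes.

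The remaining CYP1 and CYP2 genes had at most 3 peaks each in either list. The Ah receptor targets Cyp1a1 and Cyp1a2, of which Cyp1a2 is abundant in liver, had no peak in either list. Cyp1b1 had 2 KO peaks, of 7 and 4 fragments, at or near the end away from its start site, and no WT peak. Cyp2e1 (chromosome 7, 140763819 to 140774990), which oxidises ethanol and acetaminophen, had KO peaks of 4 fragments, 1706 bp before the start site, and of 7 fragments inside the gene, and no WT peak. On chromosome 7 the cluster of Cyp2a, Cyp2b, Cyp2f, Cyp2g, Cyp2s and Cyp2t genes had 2 of 13 members with a KO peak and 4 with a WT peak. The shares over all protein-coding genes were 29.6% and 41.6%. This cluster held 20 KO peaks and 38 WT peaks, a ratio of 0.526 (0.290 to 0.928), mostly outside the members. The KO to WT ratio over all gene windows, 0.763, lies inside that interval. Per Mb this cluster had 14.7 peaks in KO and 27.9 in WT, against 7.5 and 14.5 on its sides. Cyp2b10, a classical target of the receptor CAR, had 1 WT peak of 5 fragments, 25809 bp past its start site, and no KO peak. Cyp2b23 had 1 WT peak of 9 fragments and no KO peak, at a raised local background of 1.45 fragments. Cyp2b13 had 1 KO peak and its near copy Cyp2b9 1 WT peak, of 4 fragments each. Cyp2a12, a steroid hydroxylase, had 3 KO peaks and 1 WT peak of 4 or 5 fragments within 7.73 kb. The Cyp2j cluster, whose enzymes make epoxides of arachidonic acid, had 5 of 7 members with a KO peak and 4 with a WT peak. These members are long, with a median of 41.8 kb, and the all-gene shares were 29.6% and 41.6%. Per Mb of member windows there were 18.1 peaks in KO and 24.1 in WT, near the all-gene densities of 17.5 and 22.9. The whole Cyp2j span was not denser than its surroundings. It had 17.6 per Mb in KO and 28.8 in WT, against 27 and 30.5 on its sides. Cyp2j13 had a KO peak of 7 fragments only, Cyp2j9 had 3 WT peaks of 4 to 6 fragments only, and Cyp2j6 had 1 peak of 6 fragments in each list. Cyp2j5 had KO peaks of 4 and 5 fragments and WT peaks of 5 and 4. Cyp2j8 and Cyp2j11 had 1 KO peak each, of 4 and 5 fragments, and Cyp2j12 had 2 WT peaks of 4 and 5. Cyp2ab1 had 1 KO peak and 2 WT peaks of 4 or 5 fragments.

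Genes of bile acid synthesis had peaks in both lists, most of them in Cyp7b1. Of the 6 genes for bile acid synthesis and cholesterol hydroxylation, 2 had a KO peak and 5 a WT peak, with 15 KO peaks and 14 WT peaks in all, against 29.6% and 41.6% of all protein-coding genes with a peak. Without Cyp7b1 the other 5 genes held 1 KO peak and 6 WT peaks. Cyp7a1, the rate-limiting enzyme of the classical pathway, had no peak in either list. Cyp8b1, the sterol hydroxylase needed for cholic acid, had 1 WT peak of 5 fragments, 1783 bp before its start site, and no KO peak. Cyp27a1 (chromosome 1, 74713148 to 74737897), the mitochondrial sterol side-chain hydroxylase, had a KO peak of 6 fragments at 74714493 to 74714563 and a WT peak of 7 fragments at 74714256 to 74714363. These lay 129 bp apart, 1013 bp and 745 bp past the start site by their summits, with folds of 3.34 and 3.76 at local backgrounds of 1.10 fragments in KO and 1.13 in WT. Cyp7b1 (chromosome 3, 18071944 to 18243890), the oxysterol hydroxylase of the alternative pathway, had the most KO peaks of any member, 14 of 4 to 8 fragments, and 8 WT peaks of 4 to 6. In peaks per Mb this was 79.6 in KO (43.5 to 133.5) and 45.5 in WT (19.6 to 89.6), and the 2 intervals overlapped. Its highest KO peak, at 18185025 to 18185112, lay 115 bp from a WT peak of 4 fragments. Cyp39a1, another oxysterol hydroxylase, had 3 WT peaks of 5, 5 and 6 fragments and no KO peak. Cyp46a1, which clears cholesterol from brain, had 1 WT peak of 5 and no KO peak. Cyp51, the lanosterol demethylase of cholesterol synthesis (chromosome 5, 4080674 to 4104697), had 3 WT peaks of 5, 4 and 4 fragments, the first beyond the end away from the start site, and no KO peak.

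Members for hormones and vitamins, most of which act outside the liver, had few peaks. Most are short, with median lengths of 6.29 kb for steroid hormone, 12.9 kb for vitamin D and 8.21 kb for retinoic acid genes, and their counts are too small to set against the all-gene shares of 29.6% in KO and 41.6% in WT. Of 6 steroid hormone genes 0 had a KO peak and 2 a WT peak, Cyp11a1 with 7 fragments and Cyp21a1 with 8 at a raised local background of 1.62 fragments. Cyp11b1, Cyp11b2, Cyp17a1 and Cyp19a1 had none, the last although it spans 102 kb. Of 3 vitamin D genes, Cyp2r1, which starts vitamin D activation in liver, had 1 WT peak of 5 fragments, and Cyp24a1 and Cyp27b1 had none. The 3 genes that clear retinoic acid, Cyp26a1, Cyp26b1 and Cyp26c1, had no peak. The orphan gene Cyp20a1 had 1 KO peak of 8 fragments (chromosome 1, 60387810 to 60387911, fold 5.74), 44526 bp past its start site, and no WT peak. The other members with no peak in either list were Cyp2a4, Cyp2a5, Cyp2a22, Cyp2b19, Cyp2d9, Cyp2d10, Cyp2d11, Cyp2d12, Cyp2d22, Cyp2d26, Cyp2d34, Cyp2f2, Cyp2g1, Cyp2s1, Cyp2t4, Cyp2u1 and Cyp2w1. Members without peaks were short, with a median of 8.21 kb, against 33.8 kb for those with peaks in both lists. Over the 99 members the Spearman correlation of gene length with peak number was 0.53 in KO and 0.48 in WT, a description across genes that share both libraries.

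Partners and regulators of P450 enzymes also had peaks in both lists. The 22 genes taken also include Ptgis and Tbxas1, which are P450 genes under other symbols. Of the 22, 10 had a KO peak (45.5%) and 11 a WT peak (50%), with 7 in both. The shares over all protein-coding genes were 29.6%, 41.6% and 21.6%. These 22 genes were not matched in length to the members or to all genes, so the shares are not directly comparable. Nr1h4, which encodes the bile acid receptor FXR, had 7 KO peaks of 4 to 12 fragments and 3 WT peaks of 5 to 8. The xenobiotic receptor gene Nr1i2 (PXR) had 2 KO peaks, of 5 and 6 fragments, and no WT peak, as had Ahr, with 6 and 4. Its partner Arnt had 2 KO peaks of 4 fragments and 3 WT peaks of 4 to 8. Hnf4a had 2 KO peaks of 6 fragments and 1 WT peak of 5, and Ppara 1 peak of 5 fragments in each list. Fdx1, which passes electrons to mitochondrial P450 enzymes, had 3 KO peaks of 5 or 6 fragments and no WT peak. Cebpa, Rxra, Cyb5b and Ptgis had WT peaks only, of at most 7 fragments, and Nr5a2 had 1 KO peak and 4 WT peaks. Tbxas1, a P450 gene under another symbol, had 5 KO peaks and 10 WT peaks over 220 kb, and Cyb5a, an electron donor, had 2 and 1. Por, the electron donor of all microsomal P450 enzymes, had no peak in either list, nor had Alas1, Cyb5r3, Fdxr, Nr0b2, Nr1i3, Pgrmc1 and Srebf2.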

How the data were processed

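H3K23pr ChIP-seq was done on liver of KO and WT mice, 1 IP and 1 input library each, and 2 IP peak lists were used. The submitters' processing notes name cutadapt 1.9.3, Bowtie2 2.2.4 and the mm10 build. Each library's peaks were called with MACS2 2.1.1.20160309 on paired ends, per the file headers, with a p cutoff of 0.001 and no more than 2 identical fragments kept. The deposited pileup is a signal, the number of IP fragments at the summit, not scaled between libraries. The deposited fold is the ratio of pileup to local background, each plus 1, and the deposited p and q values are −log10. The q column held values although the headers said it would not.

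A peak belonged to a gene when it overlapped the gene with 2 kb on either side by 1 bp. Clusters joined subfamily members within 500 kb. Exact binomial and Poisson intervals came from scipy 1.17.1, and promoters were aligned with Biopython 1.88. Counting was tested on simulated data. No test of genotype was possible with 1 library per group. Named genes were those with 7 or more fragments, peaks in both lists, the most peaks of a cluster, or a promoter peak, with set liver genes and partners. The partner list had 1 further gene, which is not analysed here. The other members are listed to account for all. The start-site comparison was added after seeing the data. The members and lists were chosen with earlier results of these data known. Alternatives changed the window, the fragment or q threshold, the overlap and the members.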

Additional observations from a re-analysis of the deposited data

How the results depend on the processing

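Of 86 alternative values over 17 results, 59 stayed within 1.5 times the reported count or, for ratios and densities, within the reported interval. The KO to WT ratio of peak number, 0.980 as reported with an interval that includes 1, lay above 1 at 1.05 without the Cyp2c cluster and in the settings named below. With windows of 10 kb, 41 members had peaks in both lists and 1 pair of peaks overlapped, against 0 with 2 kb and 10 pairs within a gap of 500 bp. With only the 2 kb on either side of each gene end, 26 members had a KO peak, 16 a WT peak and 8 both. The KO to WT ratio was then 1.61, and the ratios to the all-gene density 3.09 in KO and 1.11 in WT. With a caller q of 0.05 or smaller, 26 members had a KO peak, 8 a WT peak and 2 both, with a KO to WT ratio of 3.20. Without the Cyp2c cluster, 16 had peaks in both lists and the WT density ratio was 1.15. With 5 or more fragments the density was 30.4 per Mb in KO and 29.6 in WT for Cyp2c, and 20.8 in KO for Cyp4a. In member windows alone it was 0 in KO and 13.6 in WT for Cyp2d, and 45.0 in KO for Cyp3a. Near start sites, KO counts were 7 within 1 kb, 9 with 5 or more fragments and 3 with the q limit, and WT counts were 3 within 1 kb, 20 within 5 kb and 1 with the q limit. The cause of these shifts was not tested. The start-site settings and the exclusions of the Cyp2c cluster and Cyp7b1 were chosen after seeing the data. No paired analysis was possible because each genotype had 1 library and the labels give no replicate numbers. Most peaks held 4 to 6 fragments, so depth limits every gene-level difference.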

Other observations

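P450 loci that RefSeq does not class as protein-coding were outside the comparisons above. Of 35 such symbols, 12 had a KO peak and 8 a WT peak in the gene or within 2 kb. No share over other loci of these classes was taken, so the 2 counts have no background to be read against. Across the 99 protein-coding members the Spearman correlation between the number of KO peaks and the number of WT peaks was 0.33, and 0.21 for peaks per length, a description over genes that differ in length and share both libraries.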
